A study of Homo sapiens with 6 samples.

Results

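Isoforms of long non-coding RNA (lncRNA) genes were the rows of the deposited isoform table whose gene carried an Ensembl identifier and the biotype lncRNA. There were 375 of them, from 248 genes, among 13208 isoforms in all. The table also held 8829 isoforms of protein-coding genes and 3863 isoforms at loci to which no gene had been assigned. The samples came from K562, a chronic myeloid leukaemia line that expresses erythroid genes, and were sequenced as PCR-amplified, poly(A)-primed cDNA on a nanopore instrument. The 2 groups were whole cells (WC, 3 libraries) and the extracellular vesicles (EVs, 3 libraries) that these cells released into their medium, isolated by size exclusion. All cells were wild-type and untreated. A WC and an EV library of the same replicate number came from 1 replicate specimen and shared a flow cell. K562 is 1 line, and p-values measure only the spread between these samples.

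A lncRNA is a transcript without a long open reading frame, made by RNA polymerase II and usually capped, spliced and polyadenylated like an mRNA. Its 3′ end is cut a short way after a poly(A) signal, most often AATAAA or ATTAAA in the DNA. Some lncRNA genes host small nucleolar RNAs (snoRNAs), which guide chemical modification of ribosomal RNA and are processed from the introns after splicing. Several of these hosts belong to the terminal oligopyrimidine (TOP) genes, whose transcripts start with C and a run of C and T, as those of ribosomal protein genes do.

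A known isoform was one named by an Ensembl transcript, and a new isoform one that carried only a read name. The 375 isoforms fell into 3 classes, with 228 known spliced, 100 new spliced and 47 new single-exon isoforms. A class of known single-exon isoforms was empty, and none of the 195235 models in the full set of isoform models was both single-exon and named by an Ensembl transcript. So known against new and spliced against single-exon are not independent splits here. Isoforms of 1 gene share reads and exons and are not replicates, so the classes are set side by side by counts, medians and ranges with no test.

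The 3′ ends carry much of what separated the classes, and the last 30 bases of a few models are shown for that reason, 5′ to 3′ on the strand of the model (hg38), with the last poly(A) signal in capitals. The known spliced examples come from 3 of the genes with the highest isoform levels, SNHG5 (chr6:85677084-85677113, minus strand), LINC01610 (chr6:70399388-70399417, plus strand) and ZFAS1 (chr20:49289231-49289260, plus strand).
SNHG5, known: acaaacatgaaAATAAAacatgtaattttg
LINC01610, known: aaaagataAATAAAtatttgttcatttcaa
ZFAS1, known: ataaagaaAATAAAatcttttaaatcaaaa
The new spliced examples are CYTOR (chr2:87521489-87521518, plus strand) and ENSG00000271853 (chr1:153618804-153618833, minus strand).
CYTOR, new spliced: tcATTAAAagcaaaactaaagaaaacagaa
ENSG00000271853, new spliced: tcttcccaAATAAAgcttcctccttgaaac

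For single-exon models the strand itself was in question, because no intron fixes it. NORAD (chr20:36045618-36045647, minus strand) lay on the strand of its annotated gene and ended on a signal. The model assigned to SLC25A21-AS1 lay on the strand opposite to its gene. Both of its ends are shown, the 3′ end as modelled (chr14:37172182-37172211, minus strand) and the other end read on the other strand (chr14:37173782-37173811, plus strand).
NORAD, 3′ end as modelled: AATAAAggttattttaaaagcctgtattaa
SLC25A21-AS1, 3′ end as modelled: ccagacaggtctccttactgaagttctgcc
SLC25A21-AS1, other end, other strand: tcatttcattaaatatttgATTAAAactgc
In the SLC25A21-AS1 model the signal sat at the end that the model called its start.

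Known spliced isoforms had a median spliced length of 817.5 nt (quartiles 501 and 1331.5, range 111 to 6678) and a median of 3 exons. New spliced isoforms had a median of 977.5 nt (quartiles 577.5 and 2150.75, range 293 to 5072) and 4 exons. New single-exon isoforms were the longest by median, at 1605 nt (quartiles 1003.5 and 2248.5, range 116 to 5522). The 3 interquartile ranges overlapped, and the order of the spliced classes by length did not hold at higher levels. At a level of at least 10 the medians were 626.5 nt (known) and 606 nt (new spliced). With 1 isoform per gene new spliced isoforms had a longer median length than over all of them, and a median of 3 exons. Isoforms of coding genes had medians of 1575, 1565.5 and 1779 nt in the same 3 classes, and the single-exon isoforms at loci without a gene had a median of 2239 nt. Single-exon isoforms made up 12.5% of the lncRNA isoforms, against 0.691% of coding-gene isoforms and 98.7% of those at loci without a gene.

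The level of an isoform was the authors' mean of its normalized counts over all 6 libraries, which is deposited with no per-library value, so no SD or test is given for single isoforms. By median this level was 13.8 for known spliced, 8.83 for new spliced and 7.94 for new single-exon isoforms. The known spliced class held 74.1% of the summed level of all lncRNA isoforms, the new spliced 14.2% and the new single-exon class 11.7%. The highest single values were 857 for a single-exon isoform of ENSG00000288254, 828 for ENST00000654795.1 of SNHG5 and 508 for ENST00000520944.6 of SNHG6. Of the summed level of 1550 in the single-exon class, 857 belonged to ENSG00000288254, which lies on a scaffold outside the chromosomes and had 0 gene-level counts in all 6 libraries.

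**Figure D1:**
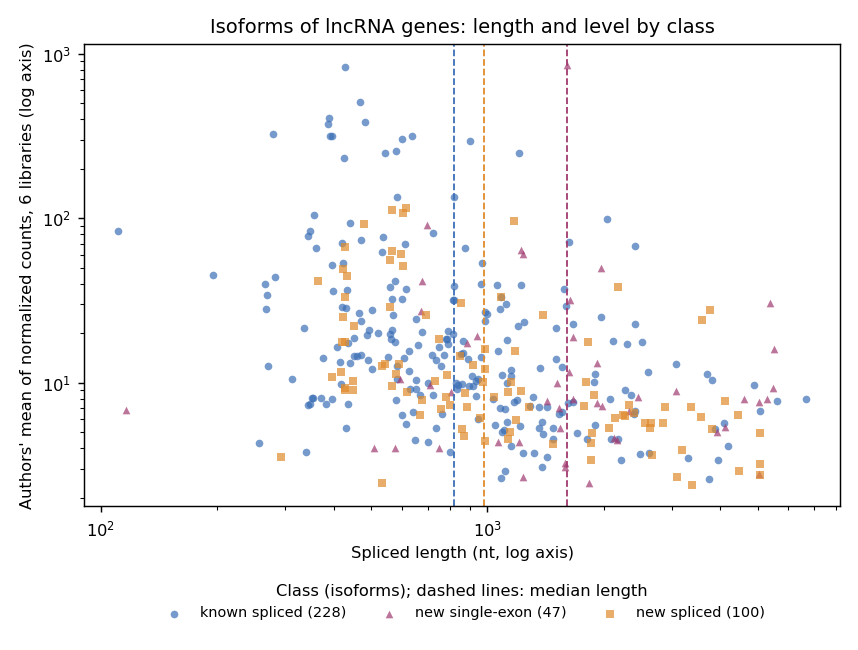
Each point is 1 of the 375 isoforms of lncRNA genes, by spliced length (x, nt, log axis) and the authors' mean of normalized counts over 6 libraries (y, log axis); colour and shape give the class and dashed lines the class medians of 817.5, 977.5 and 1605 nt. Levels above 200 lie mostly with known spliced isoforms under 1000 nt, and 1 single-exon isoform stands at 857.

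The longest known isoform, at 6678 nt and 14 exons, was ENST00000253699.7, listed under the lncRNA gene ENSG00000289750 although the annotation gives this transcript to the coding gene RBSN. The longest new spliced isoform was 5072 nt with 6 exons, at ENSG00000213963, and the most exons among new isoforms, 11, were in GAS5. The longest single-exon isoform, 5522 nt, was assigned to HCG11, followed by those of ENSG00000267520 with 5481 nt and NORAD with 5401 nt. NORAD, which binds Pumilio proteins in the cytoplasm, is annotated as an unspliced gene. The shortest isoform, with 2 exons in 111 nt, was a known isoform of SNHG25.

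The authors' productivity prediction found no start codon (NGO) for 365 of the 375, a productive reading frame for 9 and a premature stop codon for 1. It found no start codon for 3716 of the 3863 isoforms at loci without a gene and for 714 of the 8829 of coding genes. How start codons were chosen was not given in the sources used here. The call is therefore not read as a measure of coding capacity. All 10 lncRNA isoforms with a productive frame or a premature stop shared same-strand exons with a coding gene, among them NDUFV2 (3 isoforms), RBSN, HILPDA, S100A13, ORAI3, RPL10, SLC25A21 and HIGD1A. In the lncRNA class as a whole, 58 isoforms shared at least 1 base with a coding exon on the same strand and 73 on the opposite strand. On the same strand this was 11.8% of known spliced, 23.0% of new spliced and 17.0% of single-exon isoforms. On the opposite strand it was 21.5%, 16% and 17.0%. Counting only overlaps of at least 50% of the isoform's length gave 7.46%, 17.0% and 6.38% on the same strand, and 5.70%, 5% and 10.6% on the opposite strand.

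The introns of new isoforms were mostly annotated ones. Of the 581 splice junctions in known isoforms 580 were in GENCODE, and of the 378 in new spliced isoforms 346 were. Splice sites read GT-AG in 573 known and 375 new junctions, which is 98.8% and 99.2% of those with sequence, against 99.02% over the whole table. Known isoforms are named for annotated transcripts, and the study's FLAIR run included a correction step with GENCODE before the models were built. These junction shares are therefore partly set by the processing. Among the 100 new spliced isoforms, 43 joined annotated junctions in a combination that no annotated transcript held. A further 27 were a contiguous stretch of an annotated chain, and 30 had at least 1 junction outside the annotation. The highest isoforms of the last kind belonged to ENSG00000271853, SNHG8, SNHG5 and LINC01029, with levels of 95.8, 63.1, 48.96 and 41.7.

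Known isoforms, being named for annotated transcripts, had the annotated intron chain but not always the annotated length. The median was 97.5% of the annotated transcript (quartiles 77.4% and 100%, n = 227), and 137 reached 95%. However, 33 were under 50% and 21 were over 150% of the annotated length. An SNHG5 isoform of 407 nt stood against an annotated transcript of 5169 nt, and an ENSG00000255089 isoform of 4193 nt against an annotated 280 nt. The ends of the models were often those of the annotation: 184 of 227 known and 73 of 100 new spliced isoforms ended exactly on an annotated 3′ end of the gene, and 203 and 84 began exactly on an annotated start. Allowing 50 bases raised the counts of 3′ ends only to 189 and 74. Whether the processing took ends over from the annotation was not tested. Where it did, the signals and first bases given here describe annotated ends and starts. Of the 23 single-exon models on the strand of their gene, 13 ended and 15 began exactly on annotated ends, and 9 did both. No single-exon model carried an Ensembl name, so in this class new does not mean unannotated.

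The poly(A) signal separated single-exon from spliced isoforms more than new from known ones. At least 1 AATAAA or ATTAAA stood in the last 50 bases of 83.3% of known spliced (189 of 227) and 76.0% of new spliced isoforms (76 of 100), but only 31.1% of new single-exon isoforms (14 of 45). Over the whole table the share was 61.9%, with 83.2% for known spliced isoforms of coding genes and 14.6% for single-exon isoforms at loci without a gene. As a control the same motifs were searched at the other end of each model on the other strand, where they stood in 2.64%, 1.00% and 35.6% of the 3 classes. Among single-exon isoforms the 2 ends thus held it in 14 and 16 of 45. Ends that matched an annotated 3′ end held a signal in 89.7% of known (165 of 184) and 87.7% of new spliced isoforms (64 of 73). Other ends held it in 55.8% (24 of 43) and 44.4% (12 of 27). Matching ends may have been taken over from the annotation, and their shares may then describe annotated ends.

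The strand of the gene split the single-exon isoforms. All 327 spliced isoforms on annotated chromosomes lay on the strand of their gene, whereas 23 single-exon models lay on that strand and 22 on the opposite strand. The junctions of the spliced models were mostly annotated ones, so their agreement in strand is partly set by the processing. Of the 23, 13 (56.5%) held a signal at the modelled 3′ end and 1 at the other end. Of the 22, 1 (4.55%) held it at the modelled 3′ end and 15 (68.2%) at the other end, on the gene's strand. When every single-exon isoform was read on the strand of its gene, 28 of 45 (62.2%) ended on a signal and 2 (4.44%) began on one on the other strand. HCG11, URB1-AS1 and SLC25A21-AS1 were among the 15. Where a coding gene lies on the other strand the assignment can itself be uncertain: the models listed under ENSG00000280195 and SLC25A21-AS1 shared same-strand exons with RPL10 and SLC25A21.

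**Figure D2:**
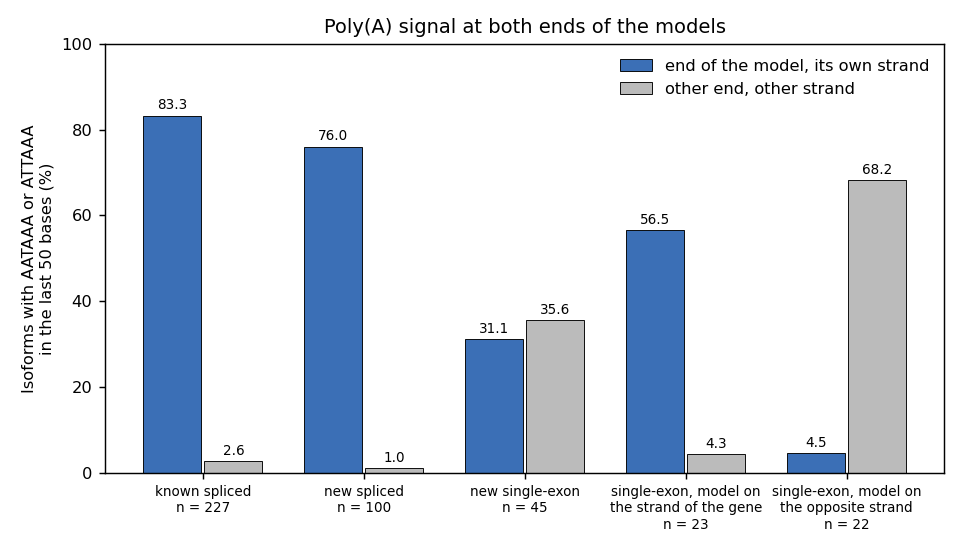
Bars give the percentage of isoforms with AATAAA or ATTAAA within 50 bases of the model's 3′ end (blue) and, as a control, of its other end on the other strand (grey), by class, with single-exon isoforms also split by the strand of their gene. The blue bar is higher in both spliced classes and in single-exon models on the strand of the gene, and the grey bar is higher, at 68.2% against 4.55%, in models on the opposite strand.

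Genomic A runs just past a 3′ end can prime reverse transcription inside a transcript. At least 12 A in the 20 genomic bases after the end stood beside 3 of 227 known spliced (1.32%), 12 of 100 new spliced (12%) and 4 of 45 single-exon isoforms (8.89%). In the 20 bases before the start, read on the other strand, the same count was met by 1.32%, 5% and 6.67%. For new spliced isoforms of coding genes the share was 3.64% after the end and 4.13% at the other end, and in the whole table it was 9.75% and 9.07%. Read on the strand of the gene, 5 of 45 single-exon isoforms met the count after the end and 2 at the other end. Of the 12 new spliced isoforms 8 had an end that was not annotated (8 of 27, 29.6%, against 4 of 73 with an annotated end, 5.48%). Among isoforms at a level of at least 10, no new spliced and no single-exon isoform met the count after its modelled end. The plainest case was a single-exon isoform of ENSG00000277476, where 19 of the 20 following bases were A (chr17:68131300-68131319, minus strand, with the run in capitals).
ENSG00000277476, genome after the 3′ end: cAAAAAAAAAAAAAAAAAAA

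One isoform was listed for 204 of the 248 genes and 2 for 29. The 44 genes with at least 2 isoforms held 171, and 10 of these genes, with 79 isoforms, were snoRNA hosts. SNHG5 had 25 isoforms, GAS5 14, SNHG29 13, ENSG00000227706 10, PVT1 8 and ZFAS1 6. SNHG1, SNHG6, SNHG8 and UCA1 had 5 each. The 18 genes of the host list (SNHG genes, GAS5, ZFAS1, EPB41L4A-AS1 and DANCR) held 87 isoforms and 45.7% of the summed isoform level. In the 41 genes with at least 2 isoforms and a summed level of at least 10, the leading isoform took a median of 67.0% of the gene's level (range 25.8% to 98.95%), and it was a known isoform in 33.

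All 87 host isoforms spanned at least 1 annotated snoRNA gene within an intron. The list was drawn up from names that mark snoRNA hosts, so this was largely set in advance. GAS5, named for its level in growth-arrested cells, had introns around 10 SNORD genes (SNORD44, SNORD47 and SNORD74 to SNORD81) and 1 SNORA gene. SNHG1 had 8, SNHG12 4, and ZFAS1 held SNORD12, SNORD12B and SNORD12C. The introns of SNHG5 isoforms held SNORD50A and SNORD50B. An exon overlapped a snoRNA gene in 23 isoforms of 7 genes, and 12 of these were GAS5 isoforms that overlapped SNORA103 and took 89.6% of that gene's level. SNORD12 lay in an exon in 1 ZFAS1 isoform, which took 1.15% of that gene's level, and SNORD50B in 2 SNHG5 isoforms with 2.45%. SNORD25 lay in an exon in 3 SNHG1 isoforms, which took 32.8% of the gene's level.

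The isoforms of SNHG5 were close in length at the top. The 4 highest had 429, 425, 479 and 348 nt in 5 or 6 exons with levels of 828, 232, 93.0 and 84.1, and the median over all 25 was 429 nt. In GAS5, the 2 highest were known 12-exon isoforms of 640 and 601 nt with levels of 319 and 303. They were followed by 2 new 11-exon isoforms of 567 and 606 nt with 112 and 107, each a contiguous part of an annotated chain. ZFAS1 was led by ENST00000441722.5 with 482 nt and a level of 385, and SNHG8 by ENST00000602520.7 with 278 nt and 327. In all 4 genes each isoform ended on an annotated 3′ end.

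The 5′ ends of host isoforms are shown because TOP genes are defined there, as the first 20 bases of the leading isoform with a TOP-like start in each of 5 hosts, with the opening C and the unbroken run of C and T in capitals. They are ZFAS1 (chr20:49278642-49278661, plus strand), SNHG8 (chr4:118278758-118278777, plus strand), SNHG29 (chr17:16439037-16439056, plus strand), EPB41L4A-AS1 (chr5:112160872-112160891, plus strand) and SNHG25 (chr17:64145970-64145989, plus strand).
ZFAS1, first bases: CTTTCgcgtctgcggtgccc
SNHG8, first bases: CTTTCacattcgggaagcgt
SNHG29, first bases: CTTTTCattcccgttgttat
EPB41L4A-AS1, first bases: CCTTTTggtgcgagcttgct
SNHG25, first bases: CTTTCagcgcctgcaggttc
Counting each distinct start once, a C followed by at least 4 C or T opened 6 of 26 host starts (23.1%) and 7 of 242 starts of the other lncRNA genes (2.89%). The same was 3.54% of 5846 starts of coding genes and 16.8% of 161 starts of cytosolic ribosomal protein genes. Starts that match annotated ones may have been taken over from the annotation. Host isoforms also held a poly(A) signal in 96.6% (84 of 87), against 68.4% of the other lncRNA isoforms (195 of 285). With 1 isoform per distinct start these were 96.2% (25 of 26) and 66.1% (160 of 242). Isoforms of 1 host can share a 3′ end, so the same signal can be counted several times. All host isoforms were spliced, whereas the others included the single-exon isoforms, of which 14 of 45 held a signal.

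Gene counts covered all 248 genes and gave the only values per library. The 6 libraries held between 560157 and 3178211 gene counts, with EV libraries the shallower. All 11 erythroid markers had counts in both groups, with summed levels of 378 to 414 CPM (gene counts relative to the TMM-scaled library total) in WC and 577 to 753 in EV libraries. Of 14 markers of other cell types, 8 had a count in WC and 5 in EV libraries, with sums of 92.7 to 126 and 53.5 to 99.5 CPM, and the liver gene ALB was at 0. Genes with lncRNA isoforms held 1.11% to 1.22% of all counts in WC and 1.28% to 1.97% in EV libraries. Without the 2 genes opposite to 18S rRNA described below, these were 0.804% to 0.871% and 0.582% to 0.637%.

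For many genes the isoform level and the gene level did not match. After each was divided by the total of its own table, the ratio of isoform to gene level had a median of 1.78 over the lncRNA genes, against 1.19 for coding genes. In 76 of the 248 genes the isoform level was at least 5 times the gene level or the gene had no counts at all (26 genes). The leading isoform shared exon bases with another annotated gene in 72 of these 76 (94.7%) and in 43 of the other 172 genes (25%). The 4 without such overlap were SNHG25, DHRS4-AS1 and 2 genes on scaffolds, where overlap could not be assessed. Reads over several genes were classed as ambiguous and stayed unassigned in the authors' gene counting, and the part of this step in the mismatch was not tested. Of the 76 genes only 10 passed the count filter for the test between groups.

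Several hosts were among the 76. SNHG5 had a summed isoform level of 1807 but 34 gene counts in the WC and 18 in the EV libraries, and 55.9% of its leading isoform was shared with the overlapping gene ENSG00000271793. GAS5 had a level of 1114 with 386 and 136 counts, ZFAS1 754 with 101 and 107, and SNHG29 572 with 333 and 81. SNHG8 and LINC01610, whose leading isoforms shared no base with another gene, had ratios of 1.73 and 2.06, in contrast to 447, 33.9, 40.5 and 24.96 for the former 4. In the other direction, MALAT1 had a ratio of 0.0966, and the genes opposite to 18S rRNA had 0.0324 and 0.0097. MALAT1, which is retained in nuclear speckles and is largely unspliced, was represented by 2 spliced isoforms of 2116 and 431 nt with levels of 17.95 and 5.28, beside 3405 WC and 851 EV gene counts.

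**Figure D3:**
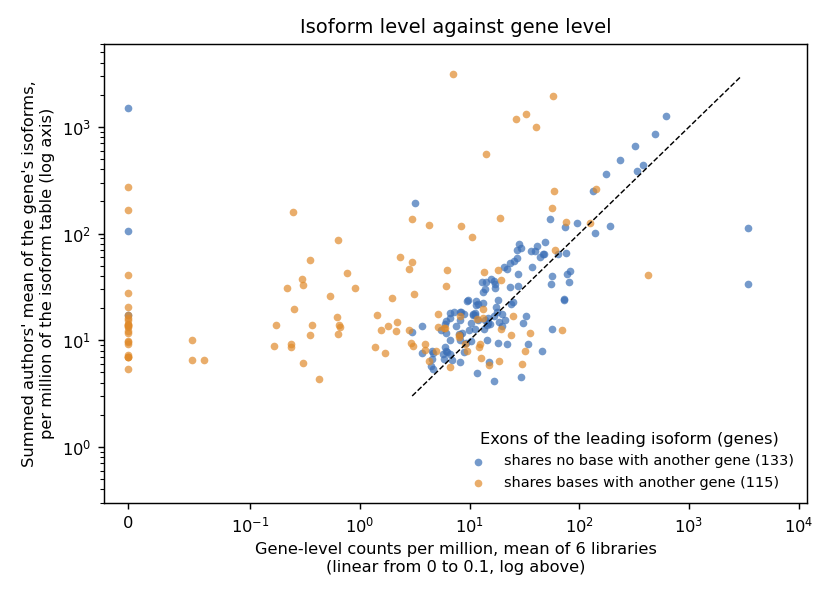
Each point is 1 of 248 genes, by its gene-level CPM (x, unscaled, mean of 6 libraries, linear from 0 to 0.1 and log above) and the summed level of its isoforms on the same footing, relative to the isoform table (y, log axis), coloured by whether its leading isoform shares exon bases with another gene; the dashed line marks equality. Points far above the line are mostly of the sharing kind, and 26 genes stand at 0 counts on the left.

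The comparison of EV with WC libraries asked whether the RNA of these genes was over- or under-represented in vesicles. It was made on gene counts by edgeR's quasi-likelihood test over 8716 genes with Benjamini-Hochberg adjustment, and "rose" and "fell" stand for higher or lower in EVs at an adjusted p under 0.05. Of the 248 genes 169 passed the count filter; 36 rose (21.3%) and 43 fell (25.4%), against 22.8% and 21.4% of all genes tested. Their median log2 fold change was -0.19, against -0.13 over all genes. The EV values lay above all WC values in 42 genes (24.9%, background 24.9%) and below them in 57 (33.7%, background 30.3%). Total-count scaling, which shifts the median of all genes from -0.13 to -0.78, gave 15 that rose and 86 that fell, so each direction holds relative to the bulk of genes. By the study's stricter rule (a log2 fold change of at least 2 and an adjusted p of at most 0.01) 5 were enriched in EVs (2.96%, background 4.53%) and 18 in WC (10.7%, background 5.93%). Without EV replicate 1 the count of 5 became 10. In bulk samples, less RNA per vesicle and fewer vesicles that hold it cannot be told apart.

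The classes of isoforms went with different changes. Of the 120 tested genes with at least 1 known isoform, 34 rose (28.3%) and 22 fell (18.3%), and their log2 fold changes had a median of 0.0059. With total-count scaling these were 13 and 50. Of the 28 tested genes whose isoforms were spliced but all new, 0 rose and 13 fell (46.4%), with a median of -0.97. With total-count scaling 24 fell, at a median of -1.62. At an unadjusted p under 0.05, 1 of the 28 was higher and 17 were lower in EVs, and DESeq2 called 0 and 12. Of the 21 tested genes with only single-exon isoforms, 2 rose and 8 fell (38.1%), with a median of -0.39. The 2 were both genes opposite to 18S rRNA. The 8 became 4 of 15 tested without WC replicate 2 and 5 of 15 without WC replicate 3. The difference between the classes was not tested. The isoform models pool all libraries, and the WC libraries were the deeper. A new isoform could thus enter the table mainly through its WC reads, which favours genes lower in EVs. The size of this part was not tested. Levels in WC were alike, with medians of 15.8, 18.9 and 17.4 CPM for the 3 classes, whereas in EV libraries they were 19.2, 6.89 and 11.6 CPM.

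Length moved with this. The leading isoform had a median length of 527.5 nt in the 36 genes that rose (quartiles 388.75 and 909.5) and of 1983 nt in the 43 that fell (quartiles 1166.5 and 2965), with 949 nt in the 90 that passed neither way. Among genes with a leading isoform under 500 nt, 17 of 30 rose and 1 fell, or 6 and 7 with total-count scaling. Of those from 500 to under 1000 nt, 13 of 57 rose and 8 fell, or 4 and 20 with total-count scaling. In this bin DESeq2 called 6 and 8 of 62 tested. The counts were 8 and 6 of 43 without WC replicate 3 and 8 and 8 of 60 without EV replicate 3. They were 9 and 5 of 41 without WC replicate 2. From 1000 to under 2000 nt, 3 of 42 rose and 13 fell, or 3 and 29 with total-count scaling. Without EV replicate 1 these were 5 and 12 of 50 tested. From 2000 nt upward 3 of 40 rose and 21 fell. The medians in the 4 bins were 0.65, 0.02, -0.51 and -1.11 on the log2 scale. Spearman's rho between length and log2 fold change was -0.45 across the 169 genes, and -0.37 within the 120 genes with a known isoform. It was -0.59 within the 28 with only new spliced isoforms. Genes share libraries and depth and are not independent, so rho is given as a description. The length bins were not made for all tested genes, so the pattern is not shown to be particular to lncRNA genes. The study reported a shorter median length of mapped reads for EVs than for WC. It also reported that differentially expressed isoforms were shorter in EVs, while the genes that gave them were not. For the unique transcripts found, its median length was longer in EVs than in WC. The part of read length in these changes was not tested.

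The new spliced genes were long, with a median leading isoform of 1978.5 nt against 831.5 nt for tested genes with a known isoform. At 2000 nt and above, 10 of 14 new spliced genes fell, at a median of -1.56 on the log2 scale, and 8 of 20 genes with a known isoform, at a median of -0.44. From 1000 to under 2000 nt, 2 of 7 and 6 of 26 fell, with medians of -0.76 and -0.35. The 3 long genes that rose were DANCR (2403 nt), SNHG16 (2407 nt) and MALAT1 (2116 nt). The parts of length and of class in the change were not tested separately.

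**Figure D4:**
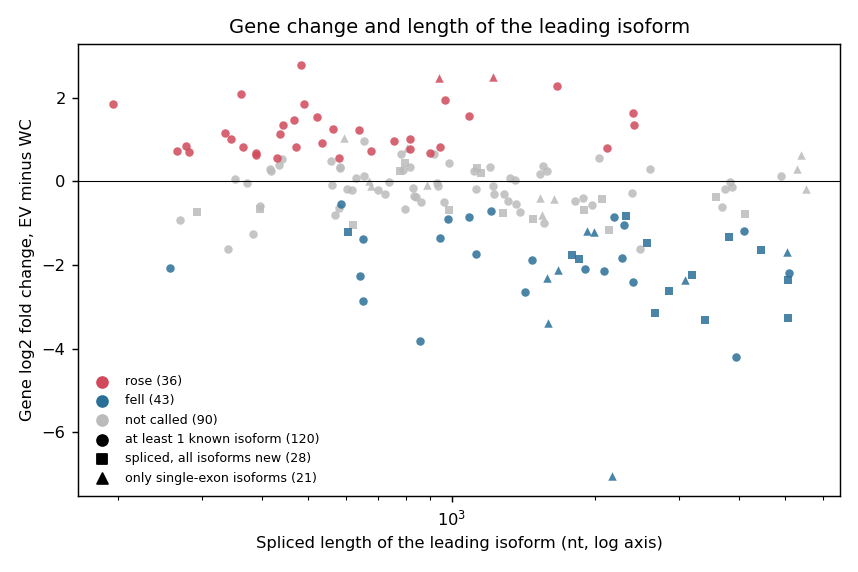
Each point is 1 of 169 tested genes, by the spliced length of its leading isoform (x, nt, log axis) and its log2 fold change, EV minus WC (y); colour gives the edgeR call and shape the class of the gene's isoforms. Genes that rose cluster on the left, at a median of 527.5 nt, and genes that fell on the right, at 1983 nt; the lowest point, RNF139-DT, had 0 counts in all EV libraries.

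Of the 15 tested genes on the host list, which was drawn up by name, 10 rose (66.7%) and 0 fell. Over all genes tested these shares were 22.8% and 21.4%. The median of the hosts was 0.85 on the log2 scale. With total-count scaling 6 hosts rose and 1 fell, at a median of 0.19, and without WC replicate 3 the counts were 6 and 0 of 13 tested. Over all 16 tested genes with a snoRNA gene in an intron 10 rose and 1 fell, the latter being ENSG00000213963, which is not on the list. Of the 15 genes on the list, 11 were higher and 0 lower in EVs at an unadjusted p under 0.05. For the list DESeq2 called 9 and 0 of 17 tested. ZFAS1 stood at 6.18, 14.3 and 7.85 CPM in the WC libraries and at 60.4, 78.6 and 66.2 in the EV libraries. The groups did not overlap, and the gene rose 6.92-fold (log2 fold change 2.79, SE 0.28, adjusted p = 9.3e-09, edgeR). GAS5 stood at 39.5, 43.9 and 28.8 CPM in WC and 65.8, 81.0 and 121 in EV libraries (2.32-fold, adjusted p = 0.00013, edgeR). SNHG9, a 195-nt host of SNORA78, stood at 15.5, 11.2 and 14.3 against 42.5, 50.9 and 57.1 CPM and rose by 1.86 on the log2 scale (SE 0.25, adjusted p = 1.4e-06, edgeR).

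Among the remaining hosts, SNHG16 rose from 37.0 ± 3.49 to 94.5 ± 15.2 CPM (SD, n = 3 each, adjusted p = 5.5e-06, edgeR), and SNHG6 from 15.5 ± 5.87 to 44.7 ± 16.1 (SD, n = 3 each, adjusted p = 0.00088, edgeR). SNHG29 rose by 0.67 on the log2 scale (SE 0.24, adjusted p = 0.022, edgeR), a call that was lost with total-count scaling (0.019 on the log2 scale), under DESeq2, with no count filter and without either WC replicate 1 or 3 or EV replicate 2 or 3. SNHG8, DANCR, SNHG19 and SNHG30 also rose; the groups overlapped for SNHG19, and the call for SNHG8 was lost with total-count scaling (0.19 on the log2 scale). SNHG1, which has 11 exons in its leading isoform, had a log2 fold change of 0.24 (SE 0.16) with an adjusted p of 0.25, EPB41L4A-AS1 0.32 (SE 0.20) and SNHG12 -0.02 (SE 0.43). SNHG5, SNHG7 and SNHG25 had too few gene counts for the test, and SNHG5 stood at 2.40, 3.83 and 3.49 CPM in WC and 2.74, 23.1 and 13.7 in EV libraries, which overlap. For GAS5, ZFAS1, SNHG6, SNHG29 and DANCR, whose isoform level was at least 5 times the gene level, the part of the counting in these changes was not tested.

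The genes opposite to 18S rRNA had the highest counts of all. ENSG00000280614 (a 1219-nt single-exon model on chromosome 21, on the gene's strand) stood at 1289, 1086 and 1357 CPM in WC and 4218, 7709 and 8931 in EV libraries. ENSG00000280800 (941 nt, model on the opposite strand) stood at 1313, 1092 and 1360 against 4187, 7820 and 8739 CPM. In both, the groups lay far apart and EV replicate 1 was the lowest EV library. They rose by 2.48 (SE 0.26) and 2.46 (SE 0.26) on the log2 scale, each with an adjusted p of 7.1e-05 (edgeR). These loci are near-identical copies, so reads can be split between them. Whether the counting used strand was not given in the sources used here, so RNA of the lncRNA and of 18S rRNA cannot be told apart. Their models held no poly(A) signal at either end.

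The 2 genes set how counts were shared between the classes. Genes with only single-exon isoforms took 30.8%, 27.3% and 32.2% of the counts of all 248 genes in WC and 55.8%, 66.3% and 68.6% in EV libraries. Without the 2 genes the shares were 4.53%, 4.79% and 5.21% against 3.02%, 3.00% and 2.89%, so the direction turned. Genes with only new isoforms went from 37.7% ± 2.37% to 65.6% ± 6.34% (SD, n = 3 each) with the 2 genes and from 15.1% ± 1.17% to 8.16% ± 0.54% without. Each of the 4 comparisons gave p = 0.1 in a two-sided exact permutation test, the smallest that 3 against 3 libraries allow. The snoRNA hosts, on the same footing without the 2 genes, had a share of 13.5% ± 0.86% in WC, and of 20.9% ± 0.82% among EV libraries (SD, n = 3 each).

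Of the 3 nuclear-retained genes with members, MALAT1 rose, FTX fell and PVT1 passed neither way. FTX, a non-coding gene of the X-inactivation centre that hosts microRNAs, stood at 33.3, 47.7 and 59.3 CPM in WC and 0, 6.94 and 2.28 in EV libraries (18.3-fold lower, log2 fold change -4.19, SE 0.54, adjusted p = 9e-07, edgeR). Its log2 fold change was -3.37 without EV replicate 1 and -5.69 without EV replicate 2. MALAT1 stood at 281, 391 and 307 against 379, 638 and 683 CPM, where EV replicate 1 lay below WC replicate 2 (log2 fold change 0.78, SE 0.19, adjusted p = 0.0018, edgeR), and total-count scaling ended the call at 0.11. PVT1, beside MYC, stood at 397, 332 and 341 against 309, 266 and 294 CPM, with no overlap but a log2 fold change of -0.30 (SE 0.16) that did not pass by edgeR, though it did by DESeq2 and without EV replicate 1. Of the 3 cytoplasmic genes 0 rose and 0 fell by edgeR or DESeq2, with 1 at an unadjusted p under 0.05, while with total-count scaling OIP5-AS1 and CYTOR fell (-0.64 and -0.86). The gene at an unadjusted p under 0.05 was NORAD, at 19.6, 18.6 and 19.8 against 31.5, 27.8 and 29.7 CPM (log2 fold change 0.63, SE 0.26, adjusted p = 0.051, edgeR). OIP5-AS1 and CYTOR had log2 fold changes of 0.02 (SE 0.23) and -0.20 (SE 0.21).

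The other roles are read against the background of 22.8% that rose and 21.4% that fell over all genes. Of 40 tested antisense genes 6 rose (15%) and 6 fell (15%), which became 3 and 19 with total-count scaling. Of 15 divergent genes 2 rose (13.3%) and 4 fell (26.7%), with total-count scaling 0 and 8. The 4 became 2 of 20 tested under DESeq2, 1 of 9 without WC replicate 1 or 3, and 0 of 10 without WC replicate 2. Of 21 LINC genes 6 rose (28.6%) and 7 fell (33.3%), with total-count scaling 1 and 12. The 6 became 3 of 23 tested under DESeq2 and 3 of 24 with no count filter. They became 3 of 16 without WC replicate 3 and 3 of 22 without EV replicate 3. The 7 became 4 of 16 without WC replicate 2. Of 53 genes without a symbol 6 rose (11.3%) and 19 fell (35.8%), with total-count scaling 2 and 32. Of 15 other named genes 2 rose (13.3%) and 5 fell (33.3%), with total-count scaling 0 and 9 and with DESeq2 0 and 5. The miRNA hosts split, with MIR4458HG at 14.8 ± 0.835 CPM in WC and 45.8 ± 14.3 in EV libraries and MIR4435-2HG, whose 2 isoforms are new, at 95.3 ± 10.6 against 42.5 ± 11.99 (SD, n = 3 each). Both passed, with adjusted p of 3.1e-05 and 0.00011 (edgeR).

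Among the genes that rose most, IGFL2-AS1 stood at 23.0, 26.3 and 18.03 CPM in WC and 106, 106 and 119 in EV libraries (4.87-fold, log2 fold change 2.28, SE 0.21, adjusted p = 2.1e-09, edgeR). LINC00520 stood at 38.8, 30.6 and 27.0 against 136, 160 and 116 CPM (4.28-fold, adjusted p = 5.2e-09, edgeR). Each had 1 known 3-exon isoform, of 1665 and 361 nt. That the groups did not overlap was a condition for the genes listed as rising most. ENSG00000269600 and FOXP4-AS1 rose from lower levels, from 4.87 ± 0.443 to 19.6 ± 4.10 and from 4.71 ± 0.866 to 17.6 ± 3.50 CPM (SD, n = 3 each). TMEM132D-AS1 rose 2.56-fold to 278 ± 37.2 CPM, B3GALT1-AS1 2.02-fold to 180 ± 32.3, and LINC01610, the most abundant LINC gene here, 1.59-fold to 791 ± 122 CPM (SD, n = 3 each). With total-count scaling the last 2 no longer passed.

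Among the genes that fell most after FTX were ENSG00000238035, ENSG00000213963 and CCDC18-AS1, each with 1 new spliced isoform of 3391, 5072 and 2664 nt. CCDC18-AS1 stood at 24.05, 26.3 and 33.7 CPM in WC and 4.12, 2.31 and 2.28 in EV libraries (8.84-fold lower, log2 fold change -3.14, SE 0.47, adjusted p = 4.6e-06, edgeR). ENSG00000238035 stood at 20.6, 27.1 and 28.2 against 2.74, 0 and 4.57 CPM, and ENSG00000213963 at 18.2, 18.6 and 18.9 against 2.74, 0 and 2.28. The EV values of these genes rest on 3 to 5 reads in all, and ENSG00000213963 was at -3.98 on the log2 scale without EV replicate 1. PSMA3-AS1 stood at 26.5, 40.6 and 42.5 against 10.97, 0 and 6.85 CPM, and ENSG00000272630 and PPP1R26-AS1 fell from 12.04 ± 1.22 and 11.8 ± 2.28 to 1.98 ± 2.34 and 2.31 ± 4.01 (SD, n = 3 each). Among single-exon genes, ENSG00000289102 (3079 nt) fell from 19.7 ± 4.82 to 4.61 ± 4.63 CPM (SD, n = 3 each). Single EV libraries moved several of these values by over 1.5 times. Without EV replicate 1 PSMA3-AS1 was at -3.43, PPP1R26-AS1 at -1.81 and ENSG00000289102 at -1.55 on the log2 scale. Without EV replicate 2 ENSG00000289102 was at -3.48, and PPP1R26-AS1 had 0 counts in the remaining EV libraries. Without EV replicate 3 ENSG00000272630 was at -3.74. RNF139-DT, chosen for mention after its values were seen, had 85 counts in the WC group and 0 in the EV group, which is at least 4.37-fold lower when 3 counts are allowed over the EV group.

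**Figure D5:**
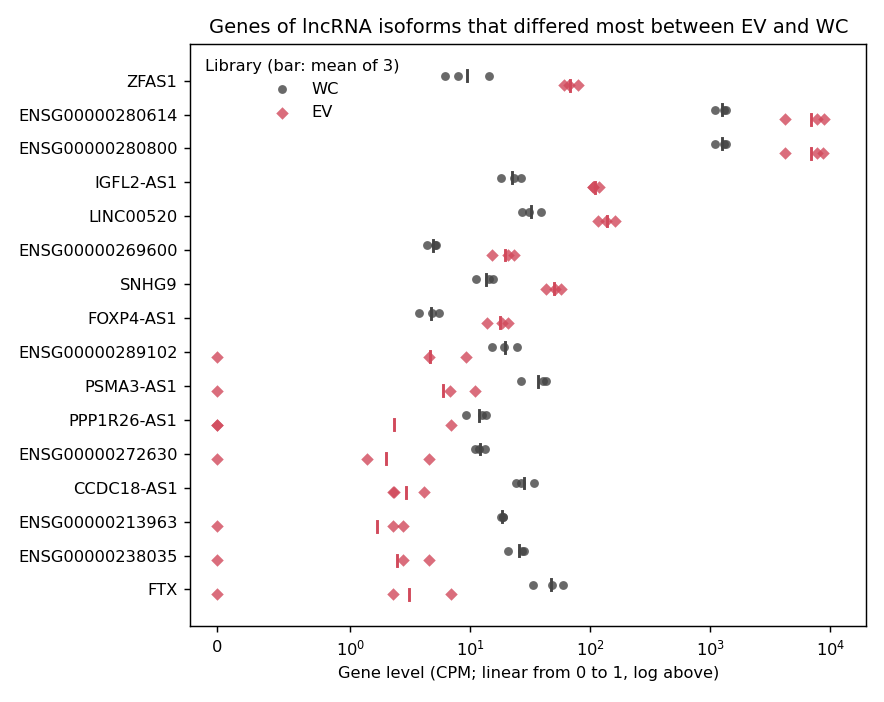
Gene levels (x, CPM, linear from 0 to 1 and log above) in the 3 WC (grey circles) and 3 EV libraries (red diamonds) for the 8 genes that rose most and the 8 that fell most among genes with no overlap of the groups and at least 10 CPM in the higher group; vertical bars are means. FTX, at 33.3 to 59.3 CPM in WC and 0 to 6.94 in EV libraries, is the lowest row, and ZFAS1 the highest.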

How the data were processed

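Isoform models and levels were the authors' output of FLAIR on nanopore reads aligned with minimap2 to hg38, and the deposited isoform table gives a mean of normalized counts over all libraries (a signal per isoform, by the authors) with fold changes and p-values from the authors' own DESeq2 comparison, which were not used. Gene counts were deposited as whole reads per gene (featureCounts), and 46 repeated gene lines were reduced to the line with the larger total. Spliced length and exon number came from the deposited models. Annotation was GENCODE 44, a later release than the authors', with 447 snoRNA genes added from RefSeq on the same assembly without strand, and 3 members on scaffolds had no sequence. EV and WC counts were compared with edgeR 4.0.16 (TMM, filterByExpr, quasi-likelihood test, Benjamini-Hochberg over 8716 genes), and the SE of a log2 fold change was its size divided by the root of F. The fit was tested on simulated counts with known changes. Same-numbered libraries shared a specimen and a flow cell by the study's methods, and their deviations from the group means correlated at 0.0622, 0.0237 and 0.00445. DESeq2, RLE and total-count scaling, other filters, a replicate block and leaving out each library were tried. Named genes were the 10 with most isoforms, the 10 with the highest summed level, the 8 largest changes each way among called genes with no overlap and at least 10 CPM, and the 3 highest per role list. The members and lists were chosen with earlier results of these data known. Library totals limit precision, and counts of PCR copies cover counting error only.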

Additional observations from a re-analysis of the deposited data

How the results depend on the processing

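Isoform levels have no replicates, so the EV comparison was refitted on gene counts only, and the lower depth of EV libraries limits genes that fell to few reads. With the replicate block 36 genes rose and 44 fell; all 79 calls were kept and 1 was added, but by the stricter rule 16 of the 18 genes enriched in WC remained. RLE normalization, a minimum mean of 5 reads and the block left all 42 tested named genes on their side of the threshold and in their direction. Total-count scaling gave 15 genes that rose, 86 that fell, 1 enriched in EVs, 32 enriched in WC and a median log2 fold change of -0.84; the median was -1.03 for genes with only single-exon isoforms, 13 rose and 74 fell at -0.84 for any spliced isoform, 13 rose and 50 fell at -0.65 for a known isoform, and 36 fell at -1.47 for only new isoforms. The same medians were -0.26 (all), -0.24 (any spliced) and -0.075 (known) with DESeq2, and -0.45, -0.42, -0.25 and -1.07 (only new) without a filter; any spliced gave -0.20 at a mean of 5 reads. OIP5-AS1 turned to -0.078 with DESeq2, -0.64 with total counts and -0.19 without a filter, and TBC1D22A-DT to -0.067, -0.63 and -0.19. With total counts SNHG1 turned to -0.42, ENSG00000279669 to -0.037, KRT10-AS1 to -0.30, NORAD to -0.022, GIHCG to -0.11 and CRNDE to -0.081. The number of tested genes changed when a library was left out, and was 130 without WC replicate 1. Leaving out each library gave 26 to 36 that rose, 31 to 42 that fell, 4 to 10 enriched in EVs, 12 to 16 enriched in WC and a median of -0.26 to -0.18 over all genes. The ranges were 24 to 34, 27 to 34 and -0.25 to -0.12 for any spliced, 24 to 34, 16 to 22 and 0.025 to 0.22 for known, 2 to 2, 15 to 21 and -0.99 to -0.78 for only new, and 2 to 2, 4 to 8 and -0.54 to -0.24 for only single-exon isoforms. OIP5-AS1 ranged from -0.24 to 0.24 and TBC1D22A-DT from -0.21 to 0.36. The difference in share of counts was 31.0 to 37.3 points (only single-exon) and 25.6 to 31.5 (only new), but -1.87 and -6.98 without the genes opposite to 18S rRNA. Among isoforms at a level of at least 10, median lengths were 626.5 (known) and 606 nt (new spliced), 7.96% were single-exon and 30.3% new, 90.7% of known ones held a poly(A) signal, and 0% of new spliced and 0% of single-exon ones an A-rich end. With 1 isoform per gene new spliced ones had a median of 1796 nt and 3 exons, and 18.1% were single-exon. AATAAA alone stood in 66.5% (known) and 62% (new spliced). Overlaps of at least 50% gave 7.46% same-strand (known), 5.70% and 5% opposite-strand (known, new spliced) and 6.38% same-strand (single-exon). The cause of these shifts was not tested.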
